A study of Drosophila melanogaster with 4 samples.

Results

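The replacement histone genes His2Av, His3.3A, His3.3B and His4r and the centromere histone gene cid were followed in wing imaginal discs, the larval epithelia that form the wings of Drosophila melanogaster. These 5 genes were found by their FlyBase symbols among 14061 named genes, and they held 14 of the 30950 entries of the deposited table. An entry is a stretch of exons that the authors counted together, either a whole transcript or the exons that a certain set of transcripts shares. His2Av and cid had 1 entry each, His3.3A had 3, His3.3B had 4 and His4r had 5. The annotation used here named 13 of these entries, and the remaining entry of His3.3A was named through a transcript that shared its reads.

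There were 4 libraries, 1 for each genotype. The assays were the library labelled FH-cortoCD (sd::Gal4>UAS::FH-cortoCD), which over-expresses the chromodomain of the chromatin factor Corto with FLAG and HA tags and a nuclear localization signal, and the library labelled RpL12-Myc (sd::Gal4>UAS::RpL12-Myc), which over-expresses Myc-tagged ribosomal protein L12. The controls were w1118, a line with no driver, and sd::Gal4/+, which carries the driver alone and was the control to which every other library was compared. The scalloped driver, active in the wing disc, was shared by both assays and by sd::Gal4/+. Each library was made from 1 pool of 300 discs of larvae in the third instar, so no difference has a replicate check, and every test compares 2 libraries and not 2 genotypes.

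Nucleosomes wrap DNA around the core histones H2A, H2B, H3 and H4. The bulk of these proteins comes from the replication-dependent genes of the histone cluster, which are transcribed in S phase and whose mRNAs end in a stem-loop and not in a poly(A) tail. Replacement histones are made from single genes outside the cluster, with introns and poly(A) tails, and are put into chromatin throughout the cell cycle. H2Av is the H2A variant of Drosophila and serves as both H2A.Z and H2A.X, H3.3 marks transcribed chromatin, and Cid, the fly CENP-A, replaces H3 at centromeres.

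Summed over both reads of a pair, the depth was 43698298 counts in FH-cortoCD and 44736060 in RpL12-Myc, and the controls had 26833482 in w1118 and 35219666 in sd::Gal4/+. The genotype labels and the sample titles name the 2 transgenes the opposite way round, and the titles were followed here. The single entries read for the over-expressed genes did not set the assays apart in the way the titles would. An entry of RpL12 of 255 bases had 29086 reads in FH-cortoCD, 24106 in RpL12-Myc, 9993 in w1118 and 17429 in sd::Gal4/+. The log2 fold change of this entry was larger in FH-cortoCD (0.49) than in RpL12-Myc (0.16). Other entries of RpL12 are not given here and may differ. The most read entry of corto was lower in both assays than in sd::Gal4/+, by a log2 fold change of −0.58 in FH-cortoCD and −0.29 in RpL12-Myc, and whether it covers the transgene is not known. The names of the assays therefore stand for the libraries labelled so. All 10 wing disc markers (among them vg, nub and wg) were read in every library, with a summed level of 510 RPKM in FH-cortoCD, 500 in RpL12-Myc, 628 in w1118 and 576 in sd::Gal4/+. RPKM are reads per kilobase of the entry scaled to library size by the trimmed mean of M-values (TMM). The 4 fat body markers summed to 207 RPKM in FH-cortoCD, 304 in RpL12-Myc, 17.3 in w1118 and 415 in sd::Gal4/+, and the 4 midgut markers to 5.93, 18.7, 0.206 and 0.134 in the same order. The 3 neuron markers were lower in both assays than in both controls, with 4.21, 3.96, 8.16 and 8.21. The part of such cells in the results that follow was not tested, and in pooled discs fewer cells of a type and less RNA per cell cannot be told apart.

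The 5 genes kept 1 order of level in all 4 libraries, with His3.3B first, His4r second, then His2Av, His3.3A and cid. Levels are those of the entry with the most reads. His3.3B stood at 924 RPKM in FH-cortoCD, 951 in RpL12-Myc, 839 in w1118 and 1033 in sd::Gal4/+. His4r stood at 919, 865, 589 and 802 in the same order. The place of these neighbours depends on the entry, since the last exon of His4r alone reached 1164 in FH-cortoCD and 1095 in RpL12-Myc, above His3.3B there, and 746 in w1118 and 1016 in sd::Gal4/+, below it. The ranges of the other neighbours did not overlap, with His2Av between 420 and 529 RPKM, His3.3A between 128 and 232 and cid between 4.37 and 6.66.

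**Figure D1:**
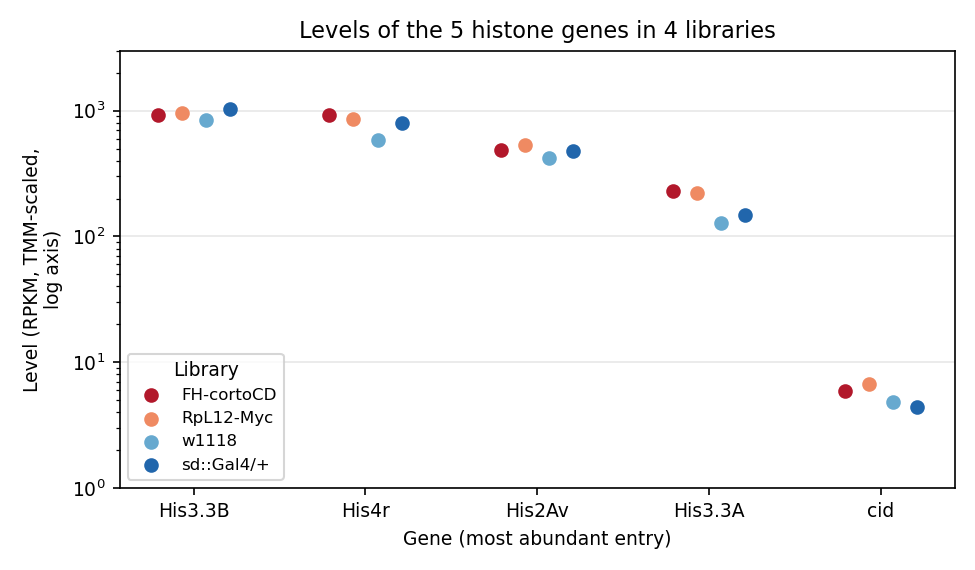
Level of the most read entry of each gene (RPKM, TMM-scaled, log axis) in the libraries FH-cortoCD, RpL12-Myc, w1118 and sd::Gal4/+, 1 point per library. His3.3B and His4r lie highest and cid lowest in every library, at 5.92, 6.66, 4.82 and 4.37.

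None of the 14 entries passed the cutoff of the study, an adjusted P-value below 4e-18 with an absolute log2 fold change above 1, in any comparison with sd::Gal4/+. Of all entries, 1.40% were called higher and 1.82% lower in FH-cortoCD, 0.960% higher and 2.52% lower in RpL12-Myc, and 0.0194% higher and 0.233% lower in w1118, by the binomial test of edgeR with Benjamini-Hochberg adjustment. With so few entries, a count of 0 lies close to what these shares give. The only entry of the 5 genes that passed an adjusted P-value below 0.05 together with the fold limit was an alternative first exon of His3.3B with 20 reads or fewer in each library, at a log2 fold change of −1.63 in RpL12-Myc (adjusted P-value 0.0186).

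A fixed limit of 1.5-fold was therefore read as well, over 13480 entries with at least 100 reads in each library, which held 12 of the 14. In FH-cortoCD, 3 of the 12 were more than 1.5-fold higher than in sd::Gal4/+, the first exon of His3.3A and both overlapping forms of the middle exon of His4r, against 9.07% of all such entries, and 0 were more than 1.5-fold lower, against 12.0%. In RpL12-Myc, 2 were more than 1.5-fold higher, the first exon of His3.3A and cid, against 8.08%, and 0 were lower, against 14.1%. These counts depend on the control and the scaling. Against w1118 as the control, 5 entries passed in FH-cortoCD (10.1% of all entries), with the last exon and the most read entry of His4r added, and 1 in RpL12-Myc (9.44%), where cid had a log2 of 0.47. With total counts as library sizes, the first exon of His3.3A (0.55) and cid (0.57) fell short of the limit in RpL12-Myc, leaving 0 entries (6.85% of all). In w1118, 0 passed the limit in either direction, against 0.304% higher and 0.608% lower. Both assays lay above both controls for 10 of the 12 entries, those of His2Av, His3.3A, His4r and cid, against 37.4% of all entries (9 of the 12, against 30.4%, with total counts), and both lay below for 0, against 38.7%. With 2 libraries against 2, an exact permutation test cannot give a two-sided p below 0.333, and several of these entries share reads or a gene.

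The median log2 fold change of the 12 entries was 0.25 in FH-cortoCD, 0.26 in RpL12-Myc and −0.20 in w1118, where the medians over all entries were −0.012, 0.0032 and −0.0014. In FH-cortoCD 11 of the 12 were above 0, in RpL12-Myc 10 and in w1118 3. These counts and medians weigh His3.3A and His4r more than the other genes, since several of their entries share reads. The members' values ran from −0.16 to 0.68 in FH-cortoCD, from −0.12 to 0.61 in RpL12-Myc and from −0.45 to 0.14 in w1118. The standard deviation over all entries was 0.53 in FH-cortoCD, 0.55 in RpL12-Myc and 0.21 in w1118, so each assay differed from sd::Gal4/+ more widely than w1118 did, while the assays differed from each other by a standard deviation of 0.21.

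**Figure D2:**
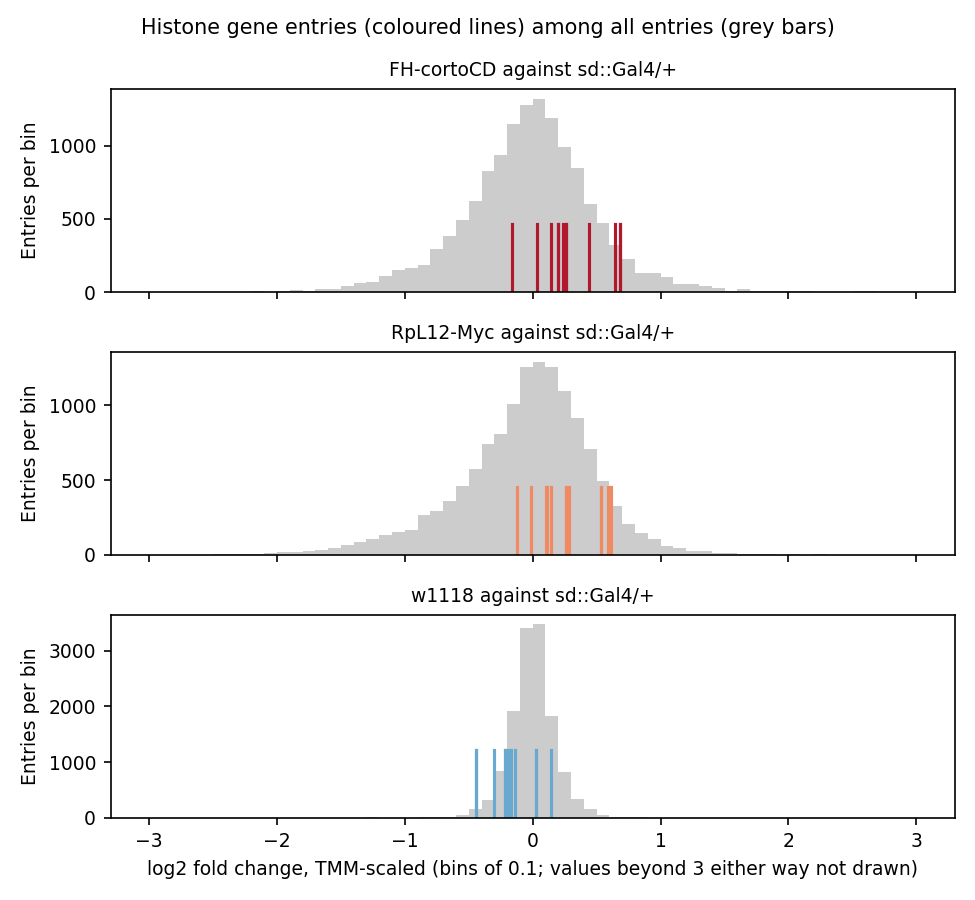
Number of entries (vertical axis) per bin of log2 fold change against sd::Gal4/+ (horizontal axis) for FH-cortoCD, RpL12-Myc and w1118, with grey bars for all 13480 entries and coloured lines for the 12 entries of the histone genes. The lines lie mostly right of 0 in the assays (medians 0.25 and 0.26) and left of it in w1118 (median −0.20), within the spread of the grey bars.

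His2Av encodes the only H2A variant of the fly, which is exchanged into nucleosomes near gene starts and is phosphorylated at DNA breaks. Its 910 bases (3R, 22692653 to 22694630, dm3, plus strand) were counted as a whole transcript, with 18803 reads in FH-cortoCD, 21157 in RpL12-Myc, 10708 in w1118 and 15463 in sd::Gal4/+. As levels these were 489, 529, 420 and 478 RPKM in the same order, so that the lowest was w1118 and the highest RpL12-Myc. The log2 fold change was 0.03 in FH-cortoCD, 0.15 in RpL12-Myc and −0.19 in w1118. With total counts in place of TMM the value in FH-cortoCD was −0.029. The adjusted P-value of the reads was 0.109 in FH-cortoCD, 1.77e-20 in RpL12-Myc and 1.34e-22 in w1118, and w1118 differed from sd::Gal4/+ by more than either assay did. Of the 5 genes, His2Av was the one whose most read entry moved least in FH-cortoCD.

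His3.3A and His3.3B encode the same H3.3 protein from 2 genes with different untranslated regions. His3.3A lies on 2L (plus strand). Its first exon (5055058 to 5055540, 483 bases), with the 5′ untranslated region and the first 282 coding bases, had 4728 reads in FH-cortoCD, 4724 in RpL12-Myc, 1728 in w1118 and 2537 in sd::Gal4/+. Scaled to levels, both assays (232 and 223) stood above both controls (128 in w1118 and 148 in sd::Gal4/+), with no overlap. Between 36 and 75 of the 483 bases carried no read in single read files, so these levels per length may be understated. The log2 fold change was 0.65 in FH-cortoCD (95% counting interval 0.58 to 0.72), 0.59 in RpL12-Myc and −0.21 in w1118.

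The last exon of His3.3A (5055631 to 5055995, 365 bases), with the last 126 coding bases and the 3′ untranslated region, showed a smaller difference. It had 3135 reads in FH-cortoCD, 3260 in RpL12-Myc, 1495 in w1118 and 2203 in sd::Gal4/+, and an annotated shorter form of 316 bases had exactly the same counts. The log2 fold change was 0.26 in FH-cortoCD, 0.26 in RpL12-Myc and −0.22 in w1118. The assays were again above both controls, at levels of 203 in FH-cortoCD, 203 in RpL12-Myc, 146 in w1118 and 170 in sd::Gal4/+. This exon overlaps Nepl3, a gene on the opposite strand, by 14 bases, and no use of strand in the counting is stated, with libraries made by a bi-directional kit.

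His3.3B (X, minus strand) went the other way at its coding part. Its exons 2 and 3 (9047271 to 9048718, 1309 bases with the whole coding sequence and the 3′ untranslated region) had 51107 reads in FH-cortoCD, 54738 in RpL12-Myc, 30745 in w1118 and 48059 in sd::Gal4/+, the most of any entry of these genes. The highest level was that of sd::Gal4/+ and the lowest that of w1118, with both assays between the controls. The log2 fold change was −0.16 in FH-cortoCD, −0.12 in RpL12-Myc and −0.30 in w1118, and against w1118 as the control it was 0.14 in FH-cortoCD and 0.18 in RpL12-Myc, so its direction rests on which control is used. Without any scaling for depth it was 0.089 in FH-cortoCD and 0.19 in RpL12-Myc. The difference between the controls was beyond the 0.285 that 90% of all entries stayed under.

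The noncoding first exon of the main His3.3B transcript (9050613 to 9050721, 109 bases) had 4995 reads in FH-cortoCD, 4661 in RpL12-Myc, 2726 in w1118 and 3808 in sd::Gal4/+. Its log2 fold change was 0.14 in FH-cortoCD, −0.016 in RpL12-Myc and −0.14 in w1118. Only FH-cortoCD, at a level of 1084, stood above sd::Gal4/+ at 983. Of the alternative first exons, the one nearer the coding exons (9048818 to 9049038, 221 bases) had 19 reads in FH-cortoCD, 16 in RpL12-Myc, 13 in w1118 and 19 in sd::Gal4/+, and the other (9049437 to 9049646, 210 bases) had 11, 8, 12 and 20. Together they took 0.597% of the reads of all first exons in FH-cortoCD (exact 95% interval 0.403 to 0.851), 0.512% in RpL12-Myc, 0.909% in w1118 and 1.01% in sd::Gal4/+ (0.722 to 1.38). The main first exon therefore carried nearly all first exon reads in each library, and a difference in this share among libraries rests on at most 20 reads for each of these exons.

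The reads of the 2 H3.3 genes were also set against each other. Per length, His3.3A had 25.1 reads for every 100 of His3.3B exons 2 and 3 in FH-cortoCD when counted at its first exon, 23.4 in RpL12-Myc, 15.2 in w1118 and 14.3 in sd::Gal4/+. Counted at its last exon it had 22.0, 21.4, 17.4 and 16.4 in the same order. By either exon both assays were above both controls, and the first exon gave the wider gap. Ratios at the first exon may be understated in every library, since some of its bases carried no read. This ratio needs no scaling between libraries, but in the assays reads were shifted towards 5′ ends over most genes, as given further on, and the part of that shift in the ratio taken at the first exon was not tested.

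His4r encodes the same H4 protein as the cluster genes, from a polyadenylated mRNA (3R, plus strand). Its most read entry, 398 bases from 10451461 to 10452336 made of a first exon and the last exon, had 15460 reads in FH-cortoCD, 15136 in RpL12-Myc, 6557 in w1118 and 11334 in sd::Gal4/+. The assays were above both controls, but the widest gap was that between the controls. The log2 fold change was 0.20 in FH-cortoCD, 0.11 in RpL12-Myc and −0.45 in w1118, the last beyond the 0.368 that 95% of all entries stayed under. The last exon by itself (10452016 to 10452326, 311 bases), which shares nearly all of these reads, gave the same values.

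The middle exon of His4r (10451748 to 10451951, 204 bases), where the coding sequence starts, differed more in the assays. It had 8226 reads in FH-cortoCD, 7717 in RpL12-Myc, 3469 in w1118 and 4318 in sd::Gal4/+, as levels 954, 861, 608 and 596. Here the controls were alike, and both assays were above them by 1.60-fold in FH-cortoCD (log2 0.68) and 1.44-fold in RpL12-Myc (log2 0.53), with 1.02-fold in w1118. A longer form of 215 bases differed from it by at most 2 reads in any library. The noncoding exon of another transcript (10451524 to 10451639, 116 bases) had 291 reads in FH-cortoCD, 314 in RpL12-Myc, 146 in w1118 and 208 in sd::Gal4/+, and its log2 fold change was 0.23, 0.29 and −0.17 in FH-cortoCD, RpL12-Myc and w1118.

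cid encodes the H3 variant of centromeric nucleosomes, on which the kinetochore is built, and its transcript was by far the least abundant. Its 1031 bases (2R, 9373106 to 9374136, plus strand) had 258 reads in FH-cortoCD, 302 in RpL12-Myc, 139 in w1118 and 160 in sd::Gal4/+. Scaled to levels, both assays were above both controls, and w1118 was above sd::Gal4/+ (but below it, at −0.20, without scaling for depth). The log2 fold change was 0.44 in FH-cortoCD (0.15 to 0.73), 0.61 in RpL12-Myc (0.33 to 0.89) and 0.14 in w1118 (−0.20 to 0.48), with adjusted P-values of 0.00818, 5.11e-05 and 0.90. The intervals of the assays overlap, and FH-cortoCD stood at 0.888 times RpL12-Myc (0.749 to 1.05), a difference not detectable at this depth. Between 37 and 210 bases of cid carried no read in single read files, and the end of bbc, on the opposite strand, lies 3 bases away with 1260 to 1397 reads in each library.

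**Figure D3:**
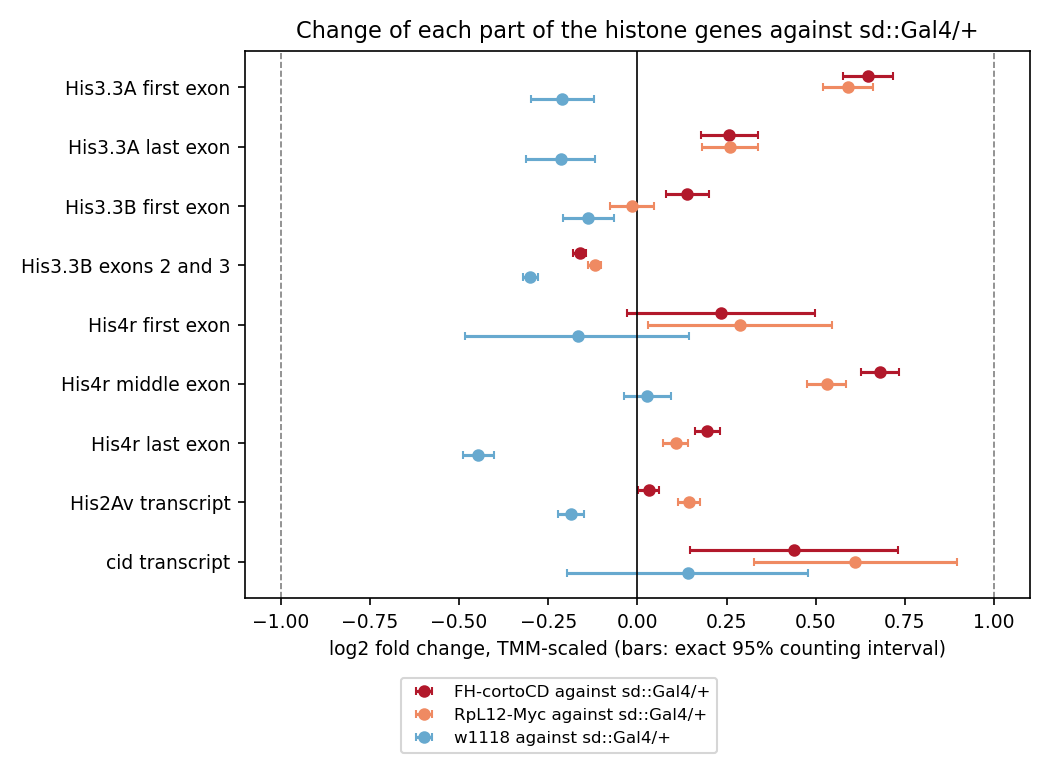
Log2 fold change (horizontal axis) of each part of the 5 genes in FH-cortoCD, RpL12-Myc and w1118, each against sd::Gal4/+, with the exact 95% counting interval as bars and the limits of −1 and 1 as dashed lines. The first exon of His3.3A (0.65 and 0.59), the middle exon of His4r (0.68 and 0.53) and cid (0.44 and 0.61) lie farthest right in the assays, and the last exon of His4r lies farthest left in w1118 (−0.45).

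The counts of 5′ parts in His3.3A and His4r were set against those of the 3′ parts of the same genes, a comparison chosen after the values were seen. In His3.3A there were 151 first exon reads for every 100 last exon reads in FH-cortoCD, 145 in RpL12-Myc, 116 in w1118 and 115 in sd::Gal4/+, so the assays stood apart from both controls. In His4r there were 53.8 middle exon reads for every 100 last exon reads in FH-cortoCD, 51.6 in RpL12-Myc, 53.4 in w1118 and 38.5 in sd::Gal4/+. Here sd::Gal4/+ alone was low, and w1118 was level with the assays. For the first exon of His4r the ratio was 1.90 in FH-cortoCD, 2.10 in RpL12-Myc, 2.25 in w1118 and 1.85 in sd::Gal4/+, with overlapping counting intervals. For the first exon of His3.3B it was 9.77 in FH-cortoCD, 8.52 in RpL12-Myc, 8.87 in w1118 and 7.92 in sd::Gal4/+, with RpL12-Myc between the controls.

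The same ratio was higher in the assays for most genes. Over 1681 genes with a 5′ and a 3′ entry, the median log2 difference from sd::Gal4/+ was 0.39 in FH-cortoCD (79.0% of genes above 0), 0.37 in RpL12-Myc (73.5%) and 0.033 in w1118 (55.1%). Both assays lay above both controls in 65.0% of genes and below in 14.3%. By that rule His3.3A was above, 0 of the 3 histone genes with such entries were below, and His3.3B and His4r were neither. For His3.3A the log2 difference was 0.39 in FH-cortoCD and 0.33 in RpL12-Myc, close to the medians over all genes but below those of the 368 genes with at least 1000 reads in each library, 0.50 in FH-cortoCD and 0.56 in RpL12-Myc. This shift of reads towards 5′ ends in the assays moves with the result on the first exon of His3.3A, and its part in it was not tested.

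**Figure D4:**
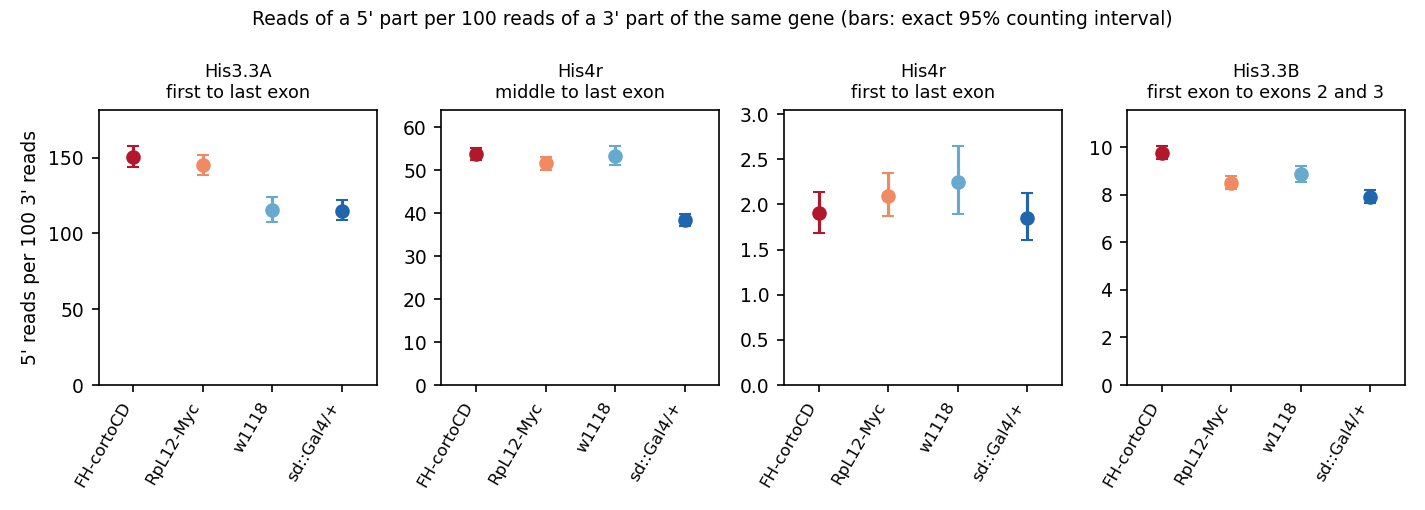
Reads of a 5′ part for every 100 reads of a 3′ part of the same gene (vertical axis, starting at 0) in FH-cortoCD, RpL12-Myc, w1118 and sd::Gal4/+, with exact 95% counting intervals. For His3.3A both assays (151 and 145) lie above both controls (116 and 115), while for the middle exon of His4r sd::Gal4/+ (38.5) lies apart from the other libraries (51.6 to 53.8).

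The replication-dependent histone genes were read for comparison. Their mRNAs lack poly(A) tails and their near-identical copies lose reads that match more than once, so the few reads left are no measure of their transcription, and counts of single copies are uncertain. The 111 genes of the cluster and BigH1 had at most 23 reads per gene in any library, too few for any of them to reach the cutoff of the study. Summed over the cluster, there were 1024 reads in FH-cortoCD, 878 in RpL12-Myc, 166 in w1118 and 394 in sd::Gal4/+. Both assays were above both controls, with a log2 fold change of 1.13 in FH-cortoCD (0.96 to 1.30) and 0.85 in RpL12-Myc (0.68 to 1.02). The controls also differed, at −0.90 in w1118 (−1.17 to −0.64).

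The classes were unequal. The H3 genes summed to 208 reads in FH-cortoCD, 160 in RpL12-Myc, 10 in w1118 and 30 in sd::Gal4/+. Their log2 fold change was 2.54 in FH-cortoCD (1.99 to 3.15), 2.11 in RpL12-Myc (1.54 to 2.72) and −1.24 in w1118. The H4 genes summed to 311, 260, 16 and 66 in the same order, with 1.99 in FH-cortoCD and 1.67 in RpL12-Myc. The controls differed by about as much as RpL12-Myc and sd::Gal4/+ did, and by less than FH-cortoCD and sd::Gal4/+, at −1.70 in w1118. The H2B genes summed to 210, 162, 41 and 72 reads, with 1.29 in FH-cortoCD, 0.86 in RpL12-Myc and −0.47 in w1118. The H2A genes summed to 187, 171, 47 and 112 reads, with 0.49 in FH-cortoCD (0.14 to 0.84) and 0.30 in RpL12-Myc, where the interval (−0.049 to 0.66) includes no change. In w1118 the H2A genes had −0.91 (−1.43 to −0.41), a larger difference than in either assay. The linker histone H1 genes had 108 reads in FH-cortoCD, 125 in RpL12-Myc, 52 in w1118 and 114 in sd::Gal4/+. Their intervals include no change in both assays (−0.72 to 0.06 in FH-cortoCD and −0.55 to 0.20 in RpL12-Myc). In w1118 the H1 genes had −0.79 (−1.29 to −0.30), again a larger difference than in either assay. The H3 and H4 classes thus differed among libraries by more than the replacement genes His3.3A, His3.3B and His4r did, on far fewer reads.

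**Figure D5:**
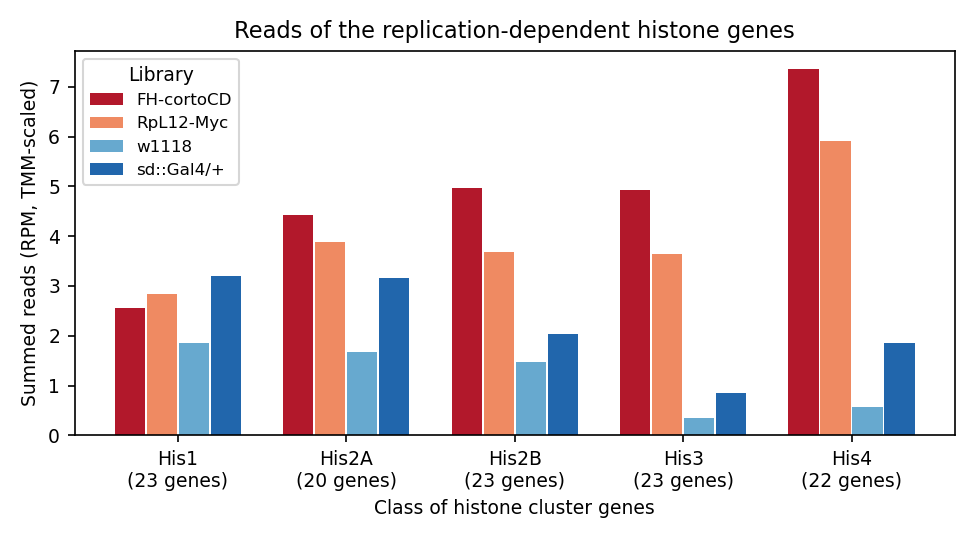
Summed reads scaled to library size (RPM, TMM-scaled, vertical axis) of the replication-dependent histone genes by class, in FH-cortoCD, RpL12-Myc, w1118 and sd::Gal4/+, 1 bar per library. The H3 and H4 classes are highest in FH-cortoCD (208 and 311 reads) and lowest in w1118 (10 and 16 reads), while H1 is highest in sd::Gal4/+ (2.55 RPM in FH-cortoCD against 3.21 RPM in sd::Gal4/+).

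The genes that work on the replacement histones were read against the shares of all entries called by the same test, which were 1.40% higher and 1.82% lower in FH-cortoCD, 0.960% higher and 2.52% lower in RpL12-Myc. For lists of this size a count of 0 lies near those shares and says little about the list. Among the 19 genes of H2Av exchange, with the Domino and Tip60 complexes, 0 of 33 entries were called in any comparison, and the median log2 fold change was 0.20 in FH-cortoCD, 0.18 in RpL12-Myc and 0.026 in w1118. The largest differences were those of the Tip60 complex genes Eaf6 (0.66 in FH-cortoCD, 0.75 in RpL12-Myc and 0.23 in w1118) and MrgBP (0.68, 0.69 and −0.21). This list had 28 entries, from 19 genes, with at least 100 reads in each library. Past 1.5-fold, 3 of these were higher in FH-cortoCD, against 9.07% of all such entries, and 6 in RpL12-Myc, against 8.08%. In FH-cortoCD 0 were lower, against 12.0%, and in RpL12-Myc 1, against 14.1%. Among 13 genes of H3.3 and H3-H4 deposition, 0 of 27 entries were called, and the median was −0.11 in FH-cortoCD, 0.033 in RpL12-Myc and −0.055 in w1118. Caf1-180, the large subunit of the chromatin assembly factor that deposits H3 and H4 at replication, had −0.46 in FH-cortoCD and −0.35 in RpL12-Myc, and the H3.3 chaperone Daxx had −0.26 and −0.27.

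Among 22 genes of the centromere and kinetochore, which hold cal1, the loader of Cid, 0 of 34 entries were called, near the share over all entries, with a median of 0.11 in FH-cortoCD, −0.0033 in RpL12-Myc and −0.018 in w1118. The largest differences in this list went opposite ways, for the kinetochore genes Kmn1 (0.62 in FH-cortoCD and 0.48 in RpL12-Myc) and Mis12 (−0.52 and −0.55). Among 9 genes of enzymes acting on H2Av, H3 or H4, 0 of 16 entries were called, and the median was −0.024 in FH-cortoCD, 0.032 in RpL12-Myc and 0.061 in w1118. The largest differences there were those of the acetyltransferase gene chm (−0.62 in FH-cortoCD and −0.46 in RpL12-Myc) and of Set8, the H4K20 methyltransferase gene (−0.48 and −0.42).

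Among 11 genes of histone mRNA processing and the histone locus, 1 of 19 entries was called, lower in FH-cortoCD, where 1.82% of all entries were. It belonged to FLASH, a factor of histone pre-mRNA cleavage, with 454 reads in FH-cortoCD, 562 in RpL12-Myc, 736 in w1118 and 842 in sd::Gal4/+, a log2 fold change of −1.14 in FH-cortoCD and −0.89 in RpL12-Myc. mute, of the histone locus body, had −0.67 and −0.70. The median of the list was −0.26 in FH-cortoCD, −0.11 in RpL12-Myc and 0.040 in w1118.

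Among 15 genes of DNA replication and the cell cycle, 2 of 36 entries were called lower in FH-cortoCD and 4 in RpL12-Myc, against 1.82% and 2.52% of all entries, and 0 higher. The called genes were those of the S phase cyclins, each given at its called entry with the largest change. This was −1.11 in FH-cortoCD and −1.19 in RpL12-Myc for CycE. For CycA it was −0.91 and −1.02, at an entry called in RpL12-Myc. Neither was the most read entry of its gene. The most read entries of CycE and CycA changed less, averaged over both assays, than those of PCNA and geminin. PCNA, the sliding clamp of replication, had 0.65 in FH-cortoCD and 0.62 in RpL12-Myc, and geminin, an inhibitor of licensing, 0.60 and 0.49, and neither reached the log2 limit of 1. The list had 27 entries with at least 100 reads in each library. Past 1.5-fold, 3 of these were higher in FH-cortoCD, against 9.07% of all such entries, and 2 in RpL12-Myc, against 8.08%. In each assay 4 were lower, against 12.0% in FH-cortoCD and 14.1% in RpL12-Myc. These counts lie near the shares over all entries. The median of the list was −0.018 in FH-cortoCD, 0.10 in RpL12-Myc and −0.024 in w1118.

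The genes nearest to each histone gene were found among 6885 genes by the Euclidean distance over the 3 log2 fold changes of the most read entry. Nearest to His3.3A was Tim8, a mitochondrial import chaperone gene (0.67 in FH-cortoCD, 0.57 in RpL12-Myc and −0.22 in w1118), followed by Polr2C and Polr2F, genes of RNA polymerase II subunits. Nearest to His2Av were CG4820, Pex3 and CG11089, to His3.3B CSN4, CIAPIN1 and Rcd7, to His4r CG3085, SNRPG and CG6013, and to cid CG14441, Mer and Rbcn-3B. Within a distance of 0.1 there were 84 genes around His2Av, 24 around cid, 18 around His3.3A, 17 around His3.3B and 2 around His4r, whose low value in w1118 few genes share. The 3 differences share the sd::Gal4/+ library, and the distances are a description.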

How the data were processed

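Polyadenylated RNA of wing discs was sequenced as pairs of 50-base reads. By the methods of the study, Bowtie placed the reads on the dm3 genome without splicing, those with several matches were dropped, and the authors counted the alignments over the exons of each FlyBase entry. The deposited counts are whole numbers without normalization, 1 file for each read of the pairs. The deposited ratio, each count as a fraction of the alignments of its read file, was used only to work out that number of alignments. Groups were taken from the sample titles. The submitters' processing notes name CASAVA 1.7 and edgeR 1.6.10. Names came from a BDGP6 annotation and coordinates from the files.

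Counts of both files were summed, so both reads of 1 fragment were counted, and P-values and intervals, which cover counting error only, overstate precision. The other libraries were tested against sd::Gal4/+ with binomTest of edgeR 4.0.16 (R 4.3.3), a binomial test, using TMM factors from all 4 libraries (0.967 for FH-cortoCD, 0.983 for RpL12-Myc, 1.04 for w1118 and 1.01 for sd::Gal4/+) and Benjamini-Hochberg adjustment over 30950 entries. Intervals are exact binomial (Clopper-Pearson). The script was tested on simulated data. The named genes were the 5 histone genes, RpL12, corto, from each list the called genes (at most 3) and the 2 with the largest mean change in the assays, and the 3 nearest genes. The members, lists and rules were chosen with earlier results of these data known. Alternatives were no scaling, total counts, other scalings and tests, single read files, and w1118 as the control. Of the marker lists not given in the report, disc myoblast markers summed to 48.0 to 57.1 RPKM (TMM-scaled), trachea to 17.2 to 20.7, blood cells to 7.98 to 11.2, salivary gland to 2.30 to 14.3, and the germ line marker bam to 0.107 to 0.141.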

Additional observations from a re-analysis of the deposited data

How the results depend on the processing

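No paired analysis was possible because each genotype had 1 library and no replicate numbers. Of the log2 fold changes of the histone genes in the other settings, 400 kept their direction and their side of the cutoff, 17 reversed and 1 became a call. The exact test and the looser P-value limit reused the main log2 fold changes, so values counted there could not reverse. A value of 0, for an alternative first exon of His3.3B in FH-cortoCD with no scaling, was counted as kept. The cause of the reversals was not tested. With w1118 as the control, His3.3B exons 2 and 3 gave 0.14 in FH-cortoCD and 0.18 in RpL12-Myc, and its first exon 0.12 in RpL12-Myc. With no scaling these were 0.089, 0.19 and 0.29, and against sd::Gal4/+ w1118 gave −0.32 for both forms of the middle exon of His4r and −0.20 for cid. His2Av in FH-cortoCD was −0.029 with total counts. The first exon of His3.3B was −0.014 in FH-cortoCD with a loess on entry length and 0.026 in RpL12-Myc with first reads alone. With second reads alone the middle exon of His4r was −0.011 in w1118 (both forms), and the alternative first exons of His3.3B, with few reads, gave 0.021 in FH-cortoCD and 0.18 in w1118 with second reads and 0.33 in w1118 with first reads. Counts of histone gene entries more than 1.5-fold higher were added after seeing the data. With w1118 as the control they were 5 in FH-cortoCD and 1 in RpL12-Myc (10.1% and 9.44% of all entries). With total counts they were 3 in FH-cortoCD and 0 in RpL12-Myc (7.54% and 6.85%). The remaining settings gave 2 to 4 in FH-cortoCD and 2 to 5 in RpL12-Myc. No scaling gave the most of these, 4 and 5 (20.6% and 24.8% of all entries). Under it 3 were lower in w1118 (7.55%). At an adjusted P-value below 0.05 an alternative first exon was called, at −1.63 in RpL12-Myc. Of the 5′ to 3′ ratios recomputed from single read files, alternatives chosen after seeing the data, 22 kept their direction and 2 reversed, to −0.036 (His4r first to last exon in FH-cortoCD, first reads) and −0.049 (His3.3A in w1118, second reads).

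The number of entries called moved more. The control dispersion of the exact test was estimated by treating w1118 and sd::Gal4/+, 1 library each of different genotypes, as replicates. In FH-cortoCD 434 were called higher, against 674 with no scaling, 1090 with the exact test at the control dispersion, 221 when counted as genes and 1370 at an adjusted P-value below 0.05. There 562 were called lower, against 313, 1117, 177 and 1396 in the same settings and 368 with first reads alone. In RpL12-Myc 297 were called higher, against 598, 880, 149 and 1173 in those settings, and 780 lower, against 457, 1494, 234 and 1843. In w1118 6 were called higher, against 1 with first reads, 0 with second reads, 40 with the exact test and 121 at 0.05, and 72 lower, against 46, 44, 229 and 360.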
